A study of Homo sapiens with 6 samples.

Results

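The genes described here are 59 genes of the mitotic spindle, the kinetochore and the spindle checkpoint, with the cyclins, kinases and condensin subunits that act with them. They were chosen by symbol from a list of mitotic genes, matched to the Ensembl identifiers of a gene count table, and make up 59 of its 23227 genes. This choice, like that of the other gene lists below, was made with earlier results of these data known. The series held 6 RNA sequencing libraries of MV4-11, an established line of human acute myeloid leukaemia cells. In 3 libraries ENO1 was knocked down, with 1 hairpin named in the columns (sh2), and the 3 libraries called NC were described as untreated. Both groups are given as wild type in genotype, the letters NC are not spelled out, and whether the NC cells carried a control hairpin is not given. Whether the libraries of a group stem from cultures grown apart is not stated, so p-values reflect only the spread among these libraries, and that spread may be technical.

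When a cell enters mitosis, CDK1 bound to A and B cyclins is switched on by CDC25 phosphatases, condensin compacts the chromosomes and a spindle of microtubules is built. Kinetochores, multiprotein assemblies on centromeres, hold the spindle fibres, and checkpoint proteins hold back the anaphase-promoting complex until every kinetochore is attached. Much of this gene set is transcribed late in the cell cycle, when MYBL2 and FOXM1, acting with the MuvB proteins, take the place of the repressive DREAM complex at promoters that carry a CHR element, often with CCAAT boxes. ENO1 encodes alpha-enolase, an enzyme of glycolysis.

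ENO1 had 2225, 2225 and 2070 counts in the knockdown libraries, against 84016, 79566 and 80058 in NC. Its level was 102.1 ± 1.25 CPM (counts scaled to a common library size) in the knockdown and 3262 ± 22.6 CPM in NC (SD, n = 3 each), so the knockdown held 3.13% of the NC level (log2 fold change -5.00 ± 0.03, adjusted p = 5.98e-37). The libraries held 20044602 to 21670135 counts in the knockdown and 24778469 to 26373960 in NC. Mitochondrially encoded genes took 9.27 to 9.69% of the counts in the knockdown libraries and 6.69 to 6.88% in NC. Knockdown library 3 lay farthest from the others of its group, at 4.04 and 4.20 times the variance that counting alone gives (chi-square over its degrees of freedom), and among NC libraries this was 2.10 to 3.15. Of the myeloid markers ITGAM, CD33, FLT3, CD4, SPI1 and the rest of a list of 9, all 9 passed the filter. Of 8 markers of other cell types, 3 passed it, among them PECAM1 and NCAM1. These 8 together held 91.8 to 95.2 CPM in the knockdown libraries and 118.7 to 123.2 CPM in NC, mostly PECAM1. The T cell gene CD3E, the B cell gene MS4A1 and the epithelial gene EPCAM had at most 5 counts in any library. They were at 0 in all NC libraries.

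The mitotic genes were lower in the ENO1 knockdown as a group, with changes that were mostly modest in size. Of the 59 genes, all of which passed the filter on low counts, 46 fell (78.0%), 1 rose (1.69%) and 12 did not pass the test, at an adjusted p of 0.05 in edgeR's quasi-likelihood test. Over all 14635 genes tested, 30.5% fell and 29.4% rose. The median log2 fold change, knockdown over NC, was -0.40 over the 59 genes, with quartiles of -0.52 and -0.12, and 0.004 over all genes tested. A fall of at least 1.5-fold was called for 10 of the 59 genes, against 8.77% of all genes tested. A fall of at least 2-fold was called for 1 of the 59 (1.69%), CENPH, a smaller share than the 3.56% of all genes tested. In bulk RNA, fewer cells in a phase of the cycle and less of a transcript per cell cannot be told apart.

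Each knockdown library showed the shift. The median gene of the 59 lay at -0.41, -0.40 and -0.33 on the log2 scale in knockdown libraries 1, 2 and 3, measured from the NC mean, and between -0.01 and 0.01 in the NC libraries. The 59 genes together held 0.591, 0.596 and 0.611% of all counts in the knockdown libraries and 0.704, 0.694 and 0.705% in NC. All 3 knockdown libraries lay below all 3 NC libraries for 47 of the 59 genes, against 32.5% of all genes tested. They lay above for 3, against 31.8% of all, and the groups overlapped for 9, against 35.7% of all. The falls of CDC25C, PLK4, BIRC5, ZWINT, ANLN and SMC2, all small, were not called with upper-quartile or library-size scaling. Without knockdown library 3 and NC library 2, the libraries that stood farthest from their groups, 46 genes fell. The part of the higher mitochondrial share of the knockdown libraries in these values was not tested.

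**Figure D1:**
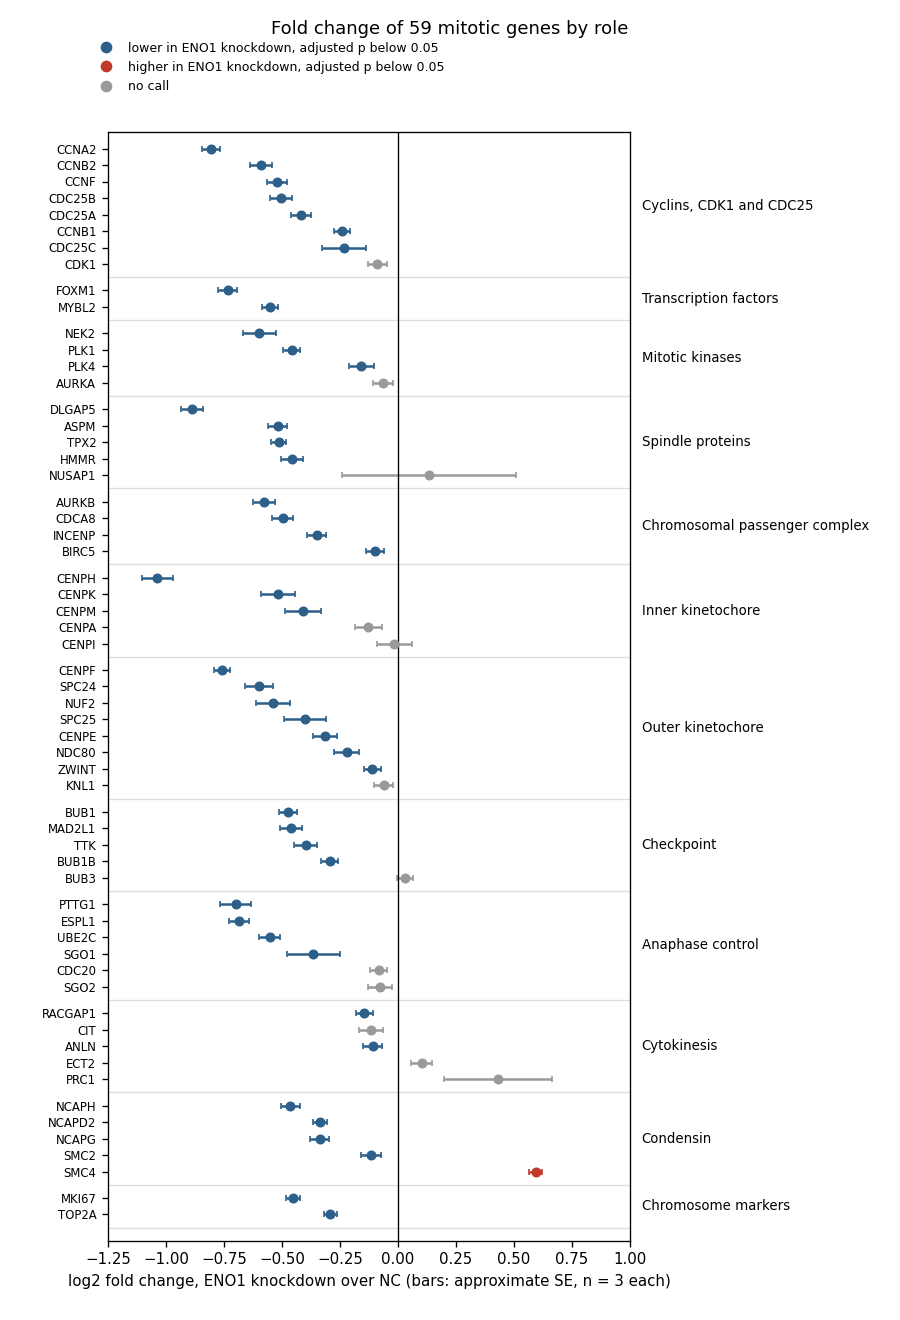
Log2 fold change, ENO1 knockdown over NC, of each of the 59 genes, grouped by role, with bars for the approximate standard error (n = 3 libraries each). Most points lie left of 0, from CENPH at -1.04; SMC4, at 0.59, is the one gene called higher, and the grey points are the 12 genes that did not pass the test.

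**Figure D2:**
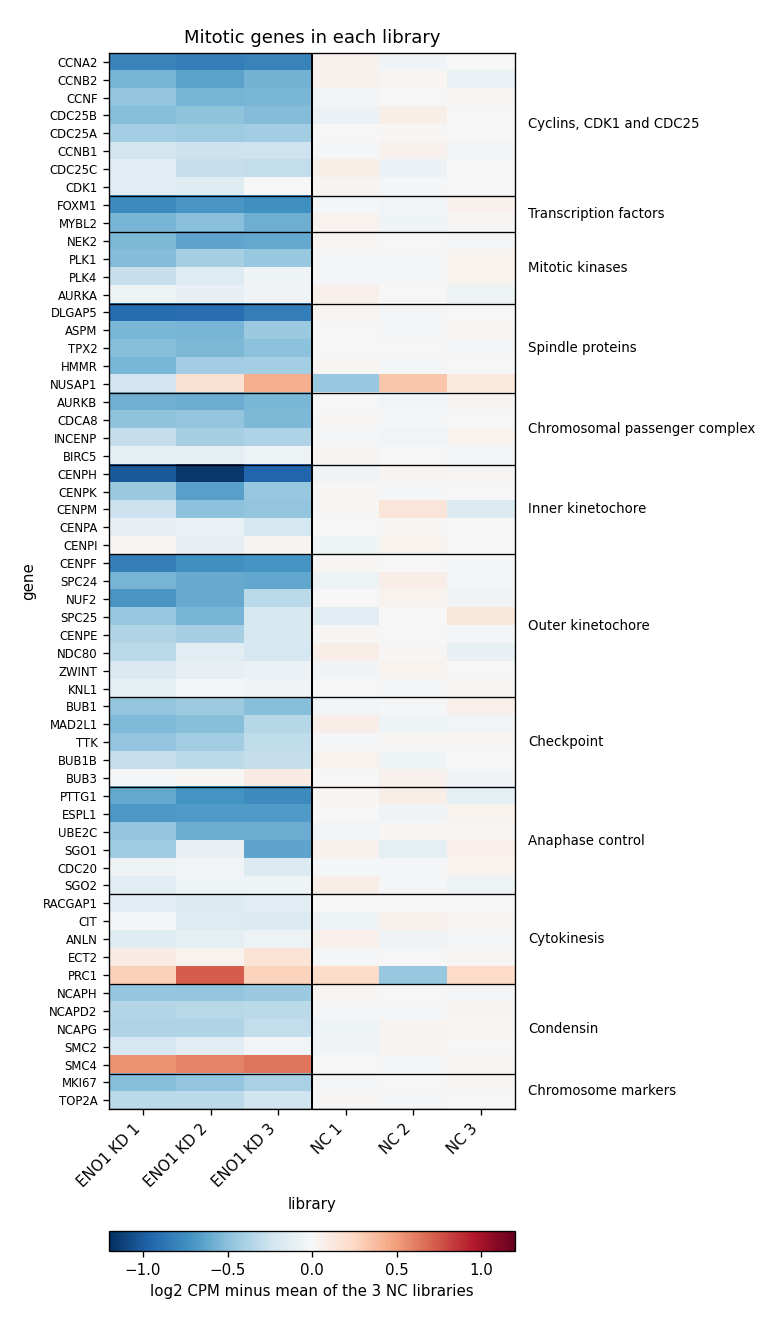
Level of each of the 59 genes in each library as log2 CPM minus the mean of the 3 NC libraries, with the knockdown libraries on the left. The knockdown columns are blue for most rows and alike among the 3 libraries, while NUSAP1 and PRC1, the genes with the fewest counts, vary within both groups.

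Among the cyclins, CDK1 and the CDC25 phosphatases, 7 of 8 genes fell (87.5%, against 30.5% of all genes tested). Their median log2 fold change was -0.46. Cyclin A2 (CCNA2), which works with CDK2 in S phase and with CDK1 at the entry into mitosis, changed most. It had 83.2, 82.0 and 82.7 CPM in the knockdown libraries, against 149.5, 140.2 and 143 CPM in NC, and the groups were far apart. Its log2 fold change was -0.81 ± 0.04 (SE, adjusted p = 3.02e-16), which left 57.2% of the NC level. Both B cyclins, the partners of CDK1 in mitosis, fell, with the larger log2 fold change for CCNB2. CCNB2 had 57.0, 53.8 and 56.9 CPM in the knockdown and 87.4, 85.6 and 79.7 CPM in NC (log2 fold change -0.59 ± 0.05, adjusted p = 1.94e-11). CCNB1 had 139, 136 and 137 CPM in the knockdown and 160.2, 168 and 159 CPM in NC (-0.24 ± 0.04, adjusted p = 1.03e-06). No library of either B cyclin crossed into the other group. The kinase CDK1 itself had 118, 117 and 129 CPM in the knockdown and 132, 126 and 128 CPM in NC. Those groups overlapped through knockdown library 3, and CDK1 did not pass the test (log2 fold change -0.09 ± 0.04, adjusted p = 0.0586), although it did without that library (-0.14, adjusted p = 4.51e-04), with no filter (adjusted p = 0.0124) and with a correction for GC content and transcript length (adjusted p = 0.021).

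Cyclin F (CCNF), a substrate receptor of the SCF ubiquitin ligase that acts in G2, averaged 65.6 ± 2.48 CPM in the knockdown and 94.2 ± 2.12 CPM in NC (adjusted p = 4.54e-11). The phosphatases that remove the inhibitory phosphates from CDKs all fell, CDC25C least. CDC25B, which starts the activation of CDK1 at centrosomes, had a log2 fold change of -0.50, and CDC25A, which also acts at the entry into S phase, one of -0.42 (adjusted p = 2.92e-10 and 3.26e-09). CDC25C, which keeps CDK1 active in mitosis, had 11.2, 10.1 and 9.98 CPM in the knockdown and 12.9, 11.7 and 12.2 CPM in NC. Its groups did not overlap, but its call (-0.23 ± 0.10, adjusted p = 0.0367) was lost without knockdown library 2, knockdown library 3, NC library 1 or NC library 3, with adjusted p of 0.0773 to 0.122.

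Both transcription factors of the late cell cycle programme fell. FOXM1, which activates G2 and M genes, had 77.8, 81.3 and 79.6 CPM in the knockdown and 131, 129 and 137 CPM in NC, and MYBL2, which joins the MuvB core before it, had 219, 228 and 216 CPM in the knockdown and 333, 312 and 327 CPM in NC. The levels of the groups lay far outside each other's range for both genes. Their log2 fold changes were -0.73 ± 0.04 and -0.55 ± 0.03 (adjusted p = 4.05e-15 and 4.26e-14). FOXM1 shares 13.7% of its 50-base stretches with transcripts of other genes, mainly ITFG2 on the other strand, and since the strand setting of the counting is not given, its value is uncertain to that extent. ITFG2 itself averaged 30.0 CPM in the knockdown and 27.9 CPM in NC, a difference that did not pass the test (adjusted p = 0.153).

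Of the mitotic kinases 3 of 4 fell (75%, against 30.5% of all genes tested). NEK2, which splits the centrosomes apart, had 17.2, 16.2 and 16.4 CPM in the knockdown and 25.6, 25.01 and 24.9 CPM in NC (log2 fold change -0.60 ± 0.07, adjusted p = 4.51e-08). PLK1, which acts in centrosome maturation, kinetochore attachment and cytokinesis, had 127, 138 and 134 CPM in the knockdown and 181, 179 and 188 CPM in NC (-0.46 ± 0.04, adjusted p = 1.94e-11). The 2 groups of each kinase were clearly apart. PLK1 shares 10.5% of its 50-base stretches with a gene on the other strand, AC008870.3, which had 0.112 CPM in the knockdown and 0.0788 CPM in NC. PLK4, the kinase that starts centriole duplication, had 47.1, 51.3 and 55.2 CPM in the knockdown and 56.5, 56.0 and 58.8 CPM in NC, so the groups almost touched. Its fall (-0.16 ± 0.05, adjusted p = 0.0134) was not called without knockdown library 1 (adjusted p = 0.118) or NC library 3 (adjusted p = 0.0694). The levels of AURKA, the kinase of spindle poles, were 83.9, 81.5 and 84.9 CPM in the knockdown and 90.8, 87.7 and 83.5 CPM in NC. The ranges overlapped, and AURKA did not pass the test (-0.07 ± 0.04, adjusted p = 0.187).

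Of the spindle proteins 4 of 5 fell (80%, against 30.5% of all genes tested), DLGAP5 most. DLGAP5 (also called HURP), which stabilises the fibres that run to kinetochores, had 38.4, 38.7 and 41.0 CPM in the knockdown and 73.8, 71.5 and 73.1 CPM in NC. That was 54.1% of the NC level, with a log2 fold change of -0.89 ± 0.05 (adjusted p = 6.74e-15), second in size to CENPH among the 59 genes. TPX2, which activates AURKA on microtubules, had 166, 163 and 169 CPM in the knockdown and 238, 238 and 235 CPM in NC (-0.51 ± 0.03, adjusted p = 8.60e-14). The pole protein ASPM and the hyaluronan receptor HMMR, which also acts in spindle assembly, had log2 fold changes of -0.52 and -0.46 (adjusted p = 1.25e-11 and 2.83e-09), again with no overlap between groups. NUSAP1, which bundles microtubules near chromosomes, could not be judged. It had only 12, 17 and 19 counts in the knockdown libraries and 12, 21 and 18 in NC, and a log2 fold change of 0.14 ± 0.37 (adjusted p = 0.775). NUSAP1 (chromosome 15, 41332694 to 41381050, plus strand, GENCODE 29) shares 54.3% of its 50-base stretches with AC087721.2, a gene annotated over it on the same strand that had 0 CPM in the knockdown and 0.041 CPM in NC. How reads that fit both genes were counted is not given, so the low counts do not show that NUSAP1 was little expressed.

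All 4 subunits of the chromosomal passenger complex fell, against 30.5% of all genes tested. This complex corrects faulty attachments at centromeres and later moves to the spindle midzone. Its kinase AURKB had 49.9, 49.2 and 50.9 CPM in the knockdown and 74.5, 72.9 and 76.3 CPM in NC (log2 fold change -0.58 ± 0.05, adjusted p = 1.90e-11). Borealin (CDCA8), which binds the complex to centromeres, had 55.1, 55.4 and 53.2 CPM in the knockdown and 77.9, 75.8 and 77.5 CPM in NC (-0.50 ± 0.04, adjusted p = 2.26e-10). The scaffold INCENP followed with -0.35 ± 0.04 (adjusted p = 3.25e-08). Each of these 3 subunits had all its knockdown libraries well below NC. For survivin (BIRC5) the gap was narrow, with 90.0, 89.3 and 92.9 CPM in the knockdown and 99.1, 96.8 and 95.5 CPM in NC. Its call (-0.10 ± 0.04, adjusted p = 0.0343) was lost without knockdown library 1 or 2 or NC library 1 or 2 (adjusted p of 0.0682 to 0.113).

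Of the inner kinetochore genes 3 of 5 fell (60%, against 30.5% of all genes tested). The log2 fold changes of the 5 ran from -1.04 to -0.02. CENPH, a subunit of the constitutive centromere-associated network, had 18.3, 16.5 and 19.1 CPM in the knockdown and 35.8, 37.6 and 37.3 CPM in NC. It was thus at 48.7% of its NC level, with a log2 fold change of -1.04 ± 0.07 (adjusted p = 2.47e-13). The gene lies on chromosome 5 at 69189548 to 69210357 on the plus strand (GENCODE 29, GRCh38). CENPK, CENPI and CENPM belong to the same subcomplex as CENPH. CENPK had 19.7, 17.1 and 19.6 CPM in the knockdown and 27.2, 26.6 and 26.8 CPM in NC (-0.52 ± 0.07, adjusted p = 5.89e-07). CENPI had 20.03, 18.5 and 20.3 CPM in the knockdown and 19.1, 20.4 and 19.9 CPM in NC, with full overlap (-0.02 ± 0.07, adjusted p = 0.866; the sign turned with upper-quartile and library-size scaling). CENPM had 29.8, 25.3 and 25.7 CPM in the knockdown and 35.9, 39.4 and 31.8 CPM in NC (-0.41 ± 0.08, adjusted p = 9.76e-05). CENPH, CENPK and CENPM were thus called lower, and CENPI was not. CENPA, the histone H3 variant that marks centromeres, had 34.8, 35.4 and 32.2 CPM in the knockdown and 37.0, 37.7 and 37.1 CPM in NC. Its groups were apart by a narrow margin, and it missed the threshold (-0.13 ± 0.06, adjusted p = 0.0562). It was called lower without knockdown library 2, with the correction for GC content and length and with no filter (adjusted p = 0.043, 0.0179 and 0.0349).

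In the outer kinetochore 7 of 8 genes fell (87.5%, against 30.5% of all genes tested), at a median log2 fold change of -0.36. CENPF, a large protein of the outer kinetochore and nuclear envelope, had 142, 151 and 154 CPM in the knockdown and 255, 252 and 249 CPM in NC. Its log2 fold change was -0.76 ± 0.03 and its adjusted p, 9.82e-17, was the smallest of the 59 genes. The NDC80 complex is the rod that grips microtubule ends. Within it SPC24 had 26.4, 25.4 and 25.1 CPM in the knockdown and 37.2, 40.9 and 38.2 CPM in NC (-0.60 ± 0.06, adjusted p = 2.10e-09). NUF2 had 25.1, 26.9 and 32.6 CPM in the knockdown and 41.0, 42.0 and 39.7 CPM in NC (-0.54 ± 0.07, adjusted p = 9.12e-07). SPC25 had 15.1, 14.02 and 18.2 CPM in the knockdown and 18.9, 20.7 and 22.8 CPM in NC (-0.40 ± 0.09, adjusted p = 5.28e-04). All 4 subunits fell without overlap, and knockdown library 3 was the nearest to NC for NUF2 and SPC25. NDC80 itself had the smallest change of the 4, with 47.4, 54.2 and 51.3 CPM in the knockdown and 62.6, 60.1 and 55.7 CPM in NC (-0.22 ± 0.06, adjusted p = 0.00109).

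The motor CENPE, which carries chromosomes to the spindle equator, had 56.1, 54.5 and 62.9 CPM in the knockdown and 72.7, 71.9 and 70.9 CPM in NC (adjusted p = 5.22e-06). KNL1, the platform on which checkpoint proteins gather, had 79.4, 84.4 and 83.3 CPM in the knockdown and 86.1, 85.1 and 86.9 CPM in NC. The gap between the groups was under 1 CPM, and KNL1 did not pass the test (-0.06 ± 0.04, adjusted p = 0.201), although it did with the correction for GC content and transcript length (-0.14, adjusted p = 0.00394). ZWINT, which binds KNL1, had 130.0, 137 and 139.8 CPM in the knockdown and 143, 151 and 146 CPM in NC. Its small fall (-0.11 ± 0.04, adjusted p = 0.0113) was not called without knockdown library 1 (adjusted p = 0.0795) or NC library 2 (adjusted p = 0.0749).

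**Figure D3:**
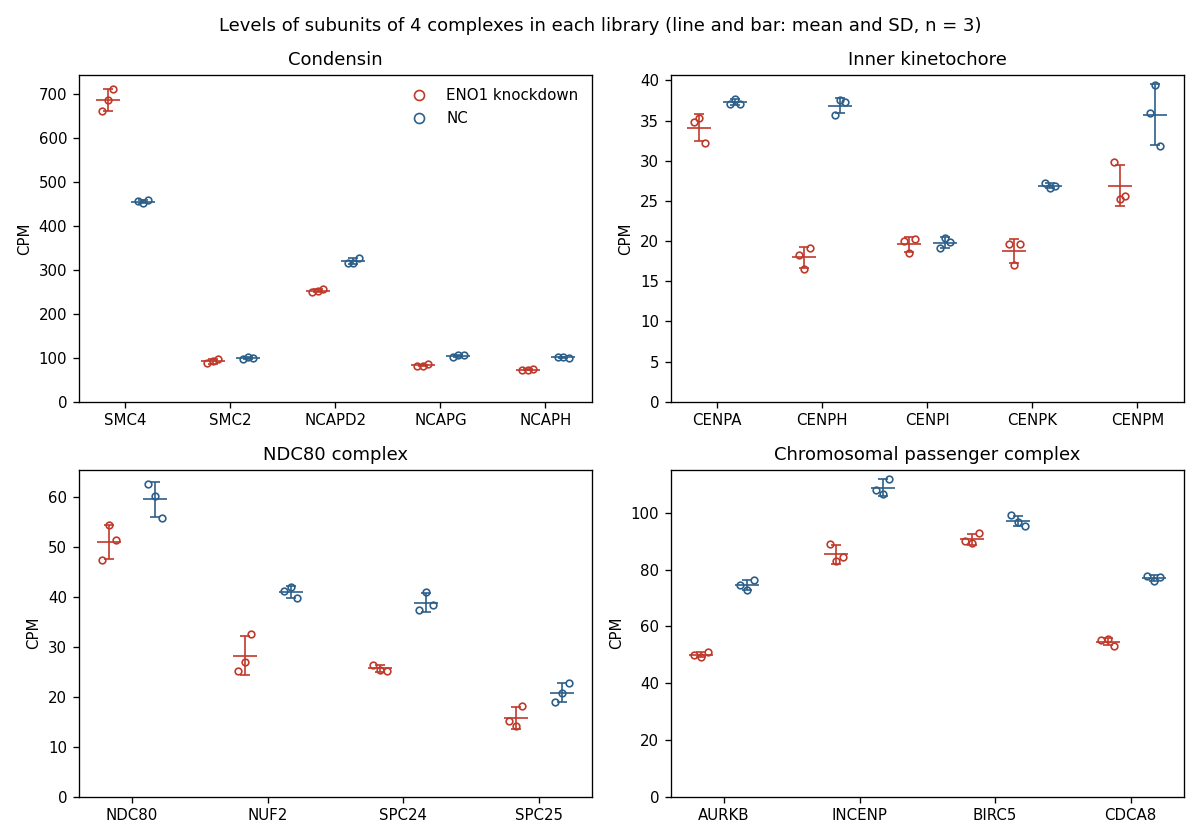
CPM of the subunits of condensin, the inner kinetochore, the NDC80 complex and the chromosomal passenger complex in each library, with ENO1 knockdown left of NC for each gene and lines and bars for mean and SD (n = 3). In each panel the subunits differ in the gap between groups: CENPH is at 48.7% of NC beside CENPI at 98.9%, and SMC4 is higher in the knockdown while the other condensin subunits are lower or close to NC.

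Of the checkpoint genes 4 of 5 fell (80%, against 30.5% of all genes tested). The kinase BUB1, which marks centromeres and recruits other checkpoint proteins, had 101, 103 and 97.9 CPM in the knockdown and 136, 138 and 145 CPM in NC (log2 fold change -0.47 ± 0.04, adjusted p = 2.79e-11). MAD2L1, the protein that captures CDC20, had 75.1, 76.3 and 85.4 CPM in the knockdown and 115, 105 and 106 CPM in NC (-0.46 ± 0.05, adjusted p = 5.93e-09). The groups lay apart for both. TTK (MPS1), the kinase that starts the signal, had a log2 fold change of -0.40 ± 0.05 and BUB1B (BUBR1), part of the inhibitory complex, one of -0.29 ± 0.04 (adjusted p = 6.64e-08 and 1.12e-07). BUB3, the adaptor that brings BUB1 and BUB1B to KNL1, had 308, 317 and 334 CPM in the knockdown and 312, 324 and 304 CPM in NC. Those libraries were interleaved, and BUB3 did not pass the test (0.03 ± 0.03, adjusted p = 0.465), but was called higher with library-size scaling (0.08, adjusted p = 0.0302).

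Of the 6 genes that control anaphase 4 fell (66.7%, against 30.5% of all genes tested). Securin (PTTG1) and separase (ESPL1), the inhibitor and the protease whose release splits sister chromatids, both fell. PTTG1 had 25.4, 23.7 and 22.9 CPM in the knockdown and 39.7, 41.2 and 36.0 CPM in NC (log2 fold change -0.70 ± 0.07, adjusted p = 4.26e-10). ESPL1 had 56.9, 57.3 and 57.3 CPM in the knockdown and 91.9, 89.3 and 94.3 CPM in NC (-0.68 ± 0.04, adjusted p = 1.45e-13). Both genes were well separated between groups. The anaphase-promoting complex works with the E2 enzyme UBE2C and the activator CDC20, of which UBE2C passed the test. UBE2C had 63.8, 58.3 and 58.3 CPM in the knockdown and 86.2, 89.1 and 89.3 CPM in NC (-0.55 ± 0.05, adjusted p = 4.02e-11). CDC20 had 136, 139 and 126 CPM in the knockdown and 139.9, 139 and 146 CPM in NC, with the nearest libraries of the groups about level. It did not pass the test (-0.08 ± 0.04, adjusted p = 0.0633), but did without knockdown library 2 (-0.11, adjusted p = 0.0295) and with no filter (adjusted p = 0.0145). The shugoshins protect cohesion at centromeres. SGO1 had 9.11, 11.5 and 7.87 CPM in the knockdown and 12.7, 11.3 and 12.8 CPM in NC, with overlap through knockdown library 2 and a fall that passed the test (-0.365 ± 0.11, adjusted p = 0.00757). It shares 13.7% of its 50-base stretches with SGO1-AS1 on the other strand, which had 0.0798 CPM in the knockdown and 0.0941 CPM in NC. SGO2 averaged 47.1 ± 1.38 CPM in the knockdown and 49.7 ± 2.59 CPM in NC, overlapped and did not pass (adjusted p = 0.206).

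Among the roles of the 59 genes, cytokinesis had the smallest shift, with a median log2 fold change of -0.11. That median covers only these 5 genes, among them PRC1 with its few counts. CEP55, which acts at the final cut between daughter cells and was listed outside the 59, had -1.39. Of the 5 cytokinesis genes 2 were lower (40%, against 30.5% of all genes tested). RACGAP1, a subunit of centralspindlin, had 99.6, 97.5 and 99.5 CPM in the knockdown and 109.8, 109 and 109 CPM in NC (-0.15 ± 0.04, adjusted p = 0.00155). Anillin (ANLN), a scaffold of the contractile ring, had 103, 105 and 109.6 CPM in the knockdown and 119, 111 and 113 CPM in NC (-0.11 ± 0.04, adjusted p = 0.0194). The groups of both genes stayed apart, but the ANLN call was lost without knockdown library 1, knockdown library 2 or NC library 1 (adjusted p = 0.0773, 0.0567 and 0.121). The kinase CIT had 56.3, 51.4 and 51.1 CPM in the knockdown and 54.8, 59.4 and 58.0 CPM in NC, with overlap (-0.12 ± 0.05, adjusted p = 0.0537). It was called lower without knockdown library 1 (-0.17, adjusted p = 0.0131) or NC library 1 (-0.15, adjusted p = 0.0302), with the correction for GC content and length (-0.18, adjusted p = 0.00376) and with no filter (-0.14, adjusted p = 0.017). ECT2, the exchange factor that activates RhoA at the equator, went the other way, with 68.9, 66.5 and 72.2 CPM in the knockdown and 63.8, 64.4 and 65.1 CPM in NC. All its knockdown libraries were above NC by a small margin; it just missed the threshold (0.10 ± 0.05, adjusted p = 0.0556) and passed it without knockdown library 2 (0.13, adjusted p = 0.0353), with upper-quartile or library-size scaling and with a filter at 5 CPM (adjusted p of 0.00463 to 0.0097). PRC1, which bundles the central spindle, had only 47, 66 and 44 counts in the knockdown and 54, 31 and 51 in NC (0.43 ± 0.23, adjusted p = 0.116). PRC1 (chromosome 15, 90966038 to 90995629, minus strand) shares 51.3% of its 50-base stretches with AC068831.7, annotated over it on the same strand, which held more reads, 15.9 CPM in the knockdown and 15.5 CPM in NC (log2 fold change 0.05, adjusted p = 0.664). The same limit on shared reads holds for the low counts of PRC1.

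Condensin, the ring that compacts chromosomes, held the one gene of the 59 that rose. SMC4, one of its ATPase subunits, had 662, 687 and 712 CPM in the knockdown and 456, 452 and 458 CPM in NC. Every knockdown library was far above every NC library, with a log2 fold change of 0.59 ± 0.03 (1.51-fold, adjusted p = 6.26e-16). SMC2, the ATPase that pairs with SMC4, had 87.0, 92.1 and 98.2 CPM in the knockdown and 97.6, 102 and 100.5 CPM in NC. Those ranges overlapped, and its small fall (-0.12 ± 0.04, adjusted p = 0.0226) was lost without knockdown library 1, knockdown library 2, NC library 2 or NC library 3, with adjusted p of 0.0561 to 0.158. The condensin I subunits NCAPH, NCAPD2 and NCAPG fell with no overlap between groups. NCAPH, which closes the ring, averaged 73.2 ± 0.586 CPM in the knockdown and 101 ± 1.52 CPM in NC (-0.46 ± 0.04, adjusted p = 1.03e-10). NCAPD2 averaged 253 ± 2.87 CPM in the knockdown and 319 ± 6.85 CPM in NC (-0.34 ± 0.03, adjusted p = 2.15e-10). NCAPG had a log2 fold change of -0.34 (adjusted p = 5.41e-08) and shares 32.4% of its 50-base stretches with transcripts of other genes, mainly LCORL on the other strand, so its value is uncertain.

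SMC4 lies on chromosome 3 at 160399274 to 160434962 on the plus strand, and its value is also uncertain. It shares 21.4% of its 50-base stretches, mainly with TRIM59 on the other strand. TRIM59 averaged 18.5 CPM in the knockdown and 11.3 CPM in NC (log2 fold change 0.71 ± 0.08, adjusted p = 3.46e-08). Reads of the shared stretch cannot be told apart without the strand setting, and the part of TRIM59 in the SMC4 value was not tested. Of the other subunits of SMC complexes, named after their values were seen, most fell. The condensin II subunits NCAPD3, NCAPG2 and NCAPH2 had log2 fold changes of -0.44, -0.38 and -0.39 (adjusted p = 1.54e-11, 3.21e-10 and 1.38e-08). The cohesin ATPases SMC1A and SMC3 had -0.32 and -0.47 (adjusted p = 6.06e-10 and 4.74e-12), and the cohesin subunit STAG2 had -0.30 (adjusted p = 7.13e-08). The alternative cohesin subunit STAG1 rose (0.23, adjusted p = 0.00233), as did the cohesin loader NIPBL (0.25, adjusted p = 6.06e-07); STAG1 shares more than 10% of its 50-base stretches, mainly with PCCB, and is uncertain. Of the cohesin regulators, PDS5A and WAPL fell (-0.14 and -0.24) and PDS5B did not pass the test (0.02, adjusted p = 0.663).

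Both genes often used as markers of cycling cells fell. MKI67, which coats mitotic chromosomes, had 509, 525 and 553 CPM in the knockdown and 716, 720.4 and 738 CPM in NC (log2 fold change -0.45 ± 0.03, adjusted p = 3.66e-13). TOP2A, the topoisomerase that untangles sister chromatids, had 372, 373 and 395 CPM in the knockdown and 469, 458 and 466 CPM in NC (-0.29 ± 0.03, adjusted p = 2.97e-09). Knockdown library 3 was the nearest to NC for both, and no library crossed over. Levels between genes can be compared only per length: in CPM per kilobase of the longest coding transcript, SMC4 ranked first in the knockdown at 125.6, against 83.2 in NC. MYBL2 ranked first in NC, at 119.8, and stood at 81.7 in the knockdown. These ranks rest on the longest transcript, and which transcripts the cells used was not tested. The SMC4 value is also uncertain for its shared stretches.

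Because several protein partners had unequal fold changes, the ratio of their counts was taken within each library, a quantity that does not depend on how libraries are scaled to each other. The 10 pairs were chosen after the fold changes had been seen, so the ratios describe the values and give no independent support. SMC4 had 7.61, 7.46 and 7.25 counts per count of SMC2 in the knockdown libraries and 4.67, 4.41 and 4.56 in NC. CENPH had 0.914, 0.894 and 0.942 counts per count of CENPI in the knockdown and 1.87, 1.84 and 1.87 in NC. CCNA2 had 0.706, 0.702 and 0.641 counts per count of CDK1 in the knockdown and 1.13, 1.11 and 1.12 in NC. These counts were not divided by transcript length, so a ratio above or below 1 does not say which transcript was more abundant. In CPM per kilobase CENPH was above CENPI in both groups (12.94 against 6.005 in the knockdown, 26.54 against 6.071 in NC). CCNA2 was below CDK1 in both (29.53 against 62.21 in the knockdown, 51.61 against 66.11 in NC). AURKB had 0.555, 0.551 and 0.548 counts per count of BIRC5 in the knockdown and 0.752, 0.754 and 0.799 in NC. UBE2C had 0.470, 0.420 and 0.463 counts per count of CDC20 in the knockdown and 0.616, 0.642 and 0.614 in NC. The groups did not overlap for any of the 10 pairs. With 3 libraries a group, a two-sided exact permutation test cannot give a p below 0.1, which each pair reached (adjusted over the 10 pairs, 0.1).

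**Figure D4:**
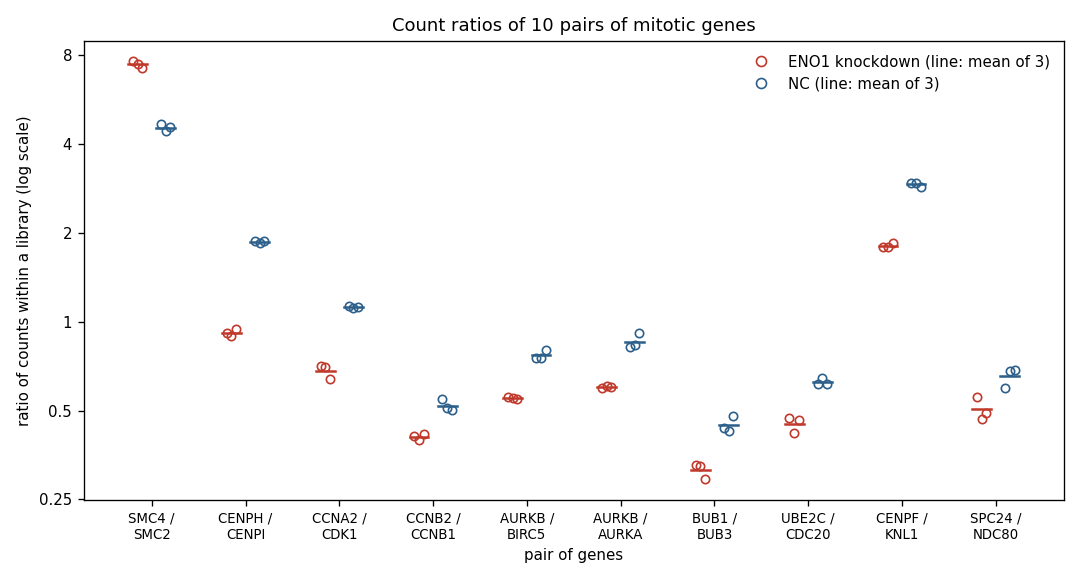
Ratio of the counts of 2 genes within each library on a log scale, for 10 pairs of mitotic genes, with ENO1 knockdown left of NC and a line at the mean of 3 libraries. SMC4 over SMC2 is higher in the knockdown (7.44 against 4.54 in NC), and the other 9 ratios are lower, CENPH over CENPI most (0.917 against 1.86).

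The letters of the promoters of these genes were also read, from 250 bases before to 50 bases after each start in RefSeq (GRCh38.p14). Whether the elements found there bear on the fall was not tested. The table held 64 promoters for 48 of the 59 genes. AURKA, BIRC5, BUB3, CENPH, CENPM, FOXM1, KNL1, RACGAP1, TPX2, TTK and UBE2C were not matched. The following 140-base stretches, from 120 bases before the start, are shown because they hold the elements and belong to genes that fell (CCNB2, ESPL1, PLK1), did not pass the test (CDC20) or rose (SMC4). All are on the plus strand, and capitals mark the CHR element TTTGAA and the CCAAT box on either strand, so that TTCAAA and ATTGG are the same elements read on the other strand.
CCNB2 (chr15:59105026-59105165): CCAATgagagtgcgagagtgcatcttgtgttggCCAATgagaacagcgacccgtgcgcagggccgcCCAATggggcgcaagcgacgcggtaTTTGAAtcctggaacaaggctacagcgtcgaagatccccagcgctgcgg
ESPL1 (chr12:53268179-53268318): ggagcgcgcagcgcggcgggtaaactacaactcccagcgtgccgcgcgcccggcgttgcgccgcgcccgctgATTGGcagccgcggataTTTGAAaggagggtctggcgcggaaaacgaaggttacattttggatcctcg
PLK1 (chr16:23678769-23678908): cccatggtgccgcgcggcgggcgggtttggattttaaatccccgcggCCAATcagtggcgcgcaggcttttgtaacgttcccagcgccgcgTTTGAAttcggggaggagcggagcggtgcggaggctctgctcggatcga
CDC20 (chr1:43358861-43359000): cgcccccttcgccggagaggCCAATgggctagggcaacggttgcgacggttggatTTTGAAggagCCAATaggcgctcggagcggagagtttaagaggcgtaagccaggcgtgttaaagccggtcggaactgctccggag
SMC4 (chr3:160399530-160399669): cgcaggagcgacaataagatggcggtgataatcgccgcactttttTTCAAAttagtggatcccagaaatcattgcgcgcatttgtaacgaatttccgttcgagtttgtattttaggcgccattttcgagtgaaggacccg

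In CCNB2, PLK1 and ESPL1 the CHR began 29, 29 and 31 bases before the start, with 3, 1 and 1 CCAAT boxes upstream of it. CDC20, which did not pass the test, also held a CHR, with a CCAAT box on each side. SMC4 held a CHR on the other strand, 75 bases before the start, and no CCAAT box in this stretch. Over the whole window, 36 of the 64 promoters (56.2%) held TTTGAA on either strand, against 15.2% of all 35114 RefSeq promoters. CCAAT on either strand was found in 45 of the 64 (70.3%), against 34.6% of all, and both elements in 27 (42.2%), against 5.9% of all. A CHR that began within the 50 bases before the start was present in 19 (29.7%), against 2.6% of all. A CHR and a CCAAT box can share at most 1 base, at their ends, and a match is a run of letters, not a site shown to be bound.

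Both elements were found in genes that fell and in genes that did not pass the test. Of the 38 genes that fell and had a promoter, 24 held a CHR and 30 a CCAAT box. Of the 9 that did not pass the test, 7 held a CHR and 8 a CCAAT box. Over all genes with a RefSeq promoter, 18.2% held a CHR and 39.7% a CCAAT box at any start. The 9 include NUSAP1 and PRC1, which could not be judged at their low counts and which also enter the medians that follow. The 32 genes with a CHR had a median log2 fold change of -0.32 (24 of them fell), and the 16 without one had -0.49 (14 fell).

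**Figure D5:**
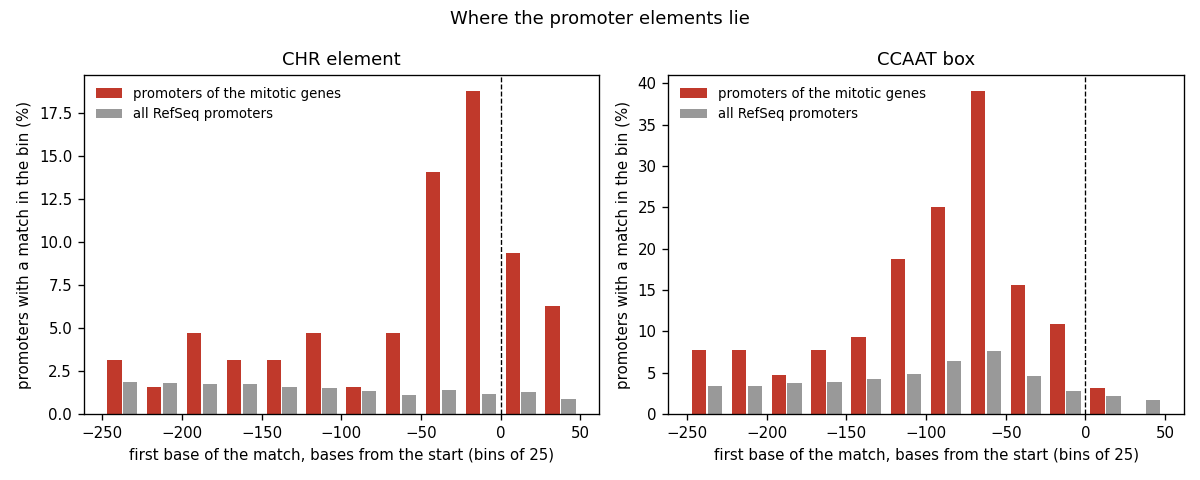
Percent of promoters in which a CHR element (left) or a CCAAT box (right) begins in each bin of 25 bases, for the 64 promoters of mitotic genes and for all 35114 RefSeq promoters; the dashed line marks the start. In the mitotic genes the CHR peaks in the bin just before the start (18.8%) and the CCAAT box between 75 and 51 bases before it (39.1%), where all promoters have 1.17 and 7.62%.

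Other genes of mitosis, from a list that leaves out the 59, also fell more often than they rose. Of 105 tested, 60 fell (57.1%, against 30.5% of all genes tested) and 16 rose (15.2%, against 29.4% of all). The other 29 did not pass, and the median log2 fold change of the 105 was -0.21. The 5 lowest among those called were led by CEP55, which directs the final cut between daughter cells. CEP55 had 24.4, 24.9 and 25.5 CPM in the knockdown and 63.98, 68.1 and 63.6 CPM in NC, far apart, and its log2 fold change of -1.39 ± 0.05 (adjusted p = 3.88e-18) was larger than that of any of the 59 genes. The cohesin subunit RAD21 followed (-0.77, adjusted p = 5.41e-18), then the centromere protein CENPW (-0.68, adjusted p = 1.40e-08), CDCA3 (-0.66, adjusted p = 2.53e-12) and the checkpoint protein MAD1L1 (-0.61, adjusted p = 1.97e-04). RAD21 shares 12.8% of its 50-base stretches, mainly with UTP23 on the other strand, and is uncertain to that extent.

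Genes of mitosis that rose included the kinase NEK6, with 221 ± 3.62 CPM in the knockdown and 128 ± 1.62 CPM in NC (log2 fold change 0.79 ± 0.03, adjusted p = 1.83e-17). The other 4 of the 5 highest were the pole protein NUMA1 (0.56, adjusted p = 9.79e-14), the centromere protein CENPC (0.42, adjusted p = 3.46e-07), the gamma-tubulin complex subunit TUBGCP5 (0.33, adjusted p = 2.58e-05) and the anaphase-promoting complex subunit ANAPC13 (0.29, adjusted p = 4.81e-05). NUMA1 and ANAPC13 share 22.8 and 10.7% of their 50-base stretches, mainly with genes on the other strand. CENPC, which anchors the inner kinetochore to CENPA, thus rose while CENPH, CENPK and CENPM fell. Mitotic kinesins, the motors of the spindle, fell in 9 of 12 cases (75%, against 30.5% of all genes tested). Their median was -0.38, and none rose. Among them KIF18B had -0.66 (adjusted p = 4.74e-13), while KIF2C, KIF14 and KIF18A did not pass the test. KIF22, KIF4A and KIFC1, which also fell, share 10.7, 14.3 and 11.4% of their 50-base stretches with other genes.

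Genes of DNA replication, which are transcribed earlier in the cycle, were lower too. Of 46 genes of DNA replication, 39 fell (84.8%, against 30.5% of all genes tested). Another 2 rose and 5 did not pass, with a median log2 fold change of -0.39 over the 46. Of 21 proteins of the DREAM complex, the E2F family and the CCAAT-binding factor NF-Y, 11 fell (52.4%, against 30.5% of all genes tested). Another 3 rose (14.3%, against 29.4% of all) and 7 did not pass, with a median of -0.19 over the 21. The 11 that fell were LIN52 (-0.80), TFDP1 (-0.69), E2F4 (-0.57), RBL2 (-0.50), TFDP2 (-0.44), E2F3 (-0.41), LIN9 (-0.36), LIN54 (-0.34), E2F1 (-0.33), RB1 (-0.27) and NFYB (-0.19). Of the 5 subunits of MuvB, which the repressive and the activating complexes share, LIN9, LIN52 and LIN54 thus fell, while LIN37 (0.25, adjusted p = 0.285) and RBBP4 (0.03, adjusted p = 0.547) did not pass the test. NFYA rose by 0.38, the repressor E2F7 by 0.32 and E2F5 by 0.31 on the log2 scale. E2F2, E2F6, E2F8, RBL1 and NFYC did not pass the test either. In this list RBL2, E2F5, E2F6, LIN37 and RBBP4 share more than 10% of their 50-base stretches with other genes.

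Markers of the myeloid line moved in both directions. The integrin ITGAM rose by 1.81, MEIS1 by 0.79, FLT3 by 0.33, CD33 by 0.23 and CD4 by 0.22 on the log2 scale, while LYZ had -2.41, CEBPA -0.62 and SPI1 -0.33, and HOXA9 did not pass the test. LYZ, CEBPA and HOXA9 share more than 10% of their 50-base stretches with other genes. Of the markers of other cell types 8 were in the table, and 3 passed the filter; summed over the 8, their level was 91.8 to 95.2 CPM in the knockdown libraries and 118.7 to 123.2 CPM in NC, mostly PECAM1. The endothelial marker PECAM1, which myeloid cells also express, had 66.4 CPM in the knockdown and 93.9 CPM in NC and fell by 0.50 on the log2 scale. NCAM1 averaged 21.7 CPM in the knockdown and 23.6 CPM in NC and did not pass the test. COL1A1 and COL1A2 had at most 11 counts in any library.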

How the data were processed

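RNA was measured in 6 MV4-11 libraries, grouped by their titles into 3 with ENO1 knockdown and 3 called NC. Per the labels' protocols, an Illumina TruSeq RNA kit was used on total RNA. HISAT2 2.0.5 and hg38 were used, per the submitters' processing notes. How reads were counted, and with which strand setting, is not given in the sources used here. Raw read counts by Ensembl gene, in whole numbers, were deposited by the authors in 1 table, with a column for each library, per the file headers. No gene had fewer than 2 counts in all 6 libraries together.

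Counts were tested with edgeR 4.0.16 (R 4.3.3), with TMM scaling, filterByExpr, the robust quasi-likelihood test, two-sided, and Benjamini-Hochberg adjustment over all 14635 genes tested (99.91% of the counts), at 0.05. CPM used TMM-scaled library sizes. The standard error is approximate, the log2 fold change without its sign over the root of the F statistic. Positions, lengths and GC content came from GENCODE 29, and genes with over 10% of their 50-base stretches in transcripts of other genes are called uncertain.

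The 59 genes, their roles and the other lists were chosen with earlier results of these data known. Named genes were ENO1; in each role the 2 genes with the smallest adjusted p; genes with a positive change, no call, or a call lost in an alternative; the 5 lowest and 5 highest called genes of the other mitotic genes; and the DREAM and E2F proteins. Others are named within their role, and the subunits and regulators of SMC complexes outside the 59 genes, 7 kinesins and the list markers beyond that rule. Alternatives were RLE, upper-quartile and library-size scaling, no filter, 5 CPM in 3 libraries, DESeq2 1.42.0, limma-voom 3.58.1, a threshold of 0.01, a trend on GC content and length (mgcv 1.9.3), a replicate block, and each library left out. Leaving out NC library 2 and knockdown library 3 together was added after seeing the data. A marker of the lists is not reported here.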

Additional observations from a re-analysis of the deposited data

How the results depend on the processing

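The count of mitotic genes that fell, 46, ran from 40 to 50 over the alternatives: 40 with upper-quartile or plain library-size scaling, with a filter at 5 CPM or at a threshold of 0.01, 43 with DESeq2, 45 with a replicate block, 46 with RLE, limma-voom or without NC library 2 and knockdown library 3, and 50 with no filter or the GC and length trend. Leaving out 1 library gave 42 to 46. The count that rose, 1, was 2 with upper-quartile scaling or a filter at 5 CPM (with ECT2), 3 with library size only (with ECT2 and BUB3, adjusted p = 0.00463 and 0.0302), and 1 to 2 with 1 library left out (2 without knockdown library 2, with ECT2). The median log2 fold change was -0.345 with library size only, and -0.411 to -0.334 with 1 library left out, the last without NC library 3. Those scalings moved the median of all genes to 0.043 (upper quartile) and 0.058 (library size).

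Calls changed only among genes with small differences. CDC25C, PLK4, BIRC5, ZWINT, ANLN and SMC2 lost theirs in 48 of the gene-level repeats, always with both of those scalings, and CDK1, CENPA, KNL1, BUB3, CDC20, ECT2 and CIT gained one in 19. Deviations of libraries of the same replicate number had correlations of 0.003, 0.009 and -0.023, not always the highest of a library. Over all pairs of a knockdown and an NC library they ran from -0.035 to 0.031. No pairing by number was thus seen, but low-count genes weigh as much as others in these values, so a weak pairing could be missed. The replicate block changed no call of the 59 genes but that of BIRC5 (adjusted p = 0.0623). The log2 fold change of NUSAP1 turned to -0.044 without knockdown library 3 and -0.093 without NC library 1, in a range up to 0.328 with 1 library left out. CENPI turned to 0.023 with upper-quartile scaling, 0.037 with library size only, 0.022 with a filter at 5 CPM, 0.024 without knockdown library 2 and 0.006 without NC library 2 (from -0.048 to 0.024 with 1 library left out). BUB3 turned to -0.038 with the GC and length trend and -0.007 without knockdown library 3 (up to 0.054 with 1 library left out). The cause of these changes was not tested. With 1 hairpin, its own effects and those of ENO1 cannot be told apart. Because NC was described as untreated and no control hairpin is given, effects of delivering a hairpin cannot be told apart either. At 12 to 66 counts a library NUSAP1 and PRC1 were not resolved.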
